A study of Mus musculus with 2 samples.

Results

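The cyclins that drive the mitotic cell cycle were examined in differentiating mouse ES cells with and without *Kdm5b* depletion. Their 10 genes were taken by symbol (*Ccnd1*, *Ccnd2*, *Ccnd3*, *Ccne1*, *Ccne2*, *Ccna1*, *Ccna2*, *Ccnb1*, *Ccnb2* and *Ccnf*), out of 21935 gene symbols in the expression files, and all 10 were present. RNA-Seq of polyadenylated RNA was performed on R1 cells, an established mouse ES cell line kept on irradiated feeder fibroblasts, after 72 h in medium lacking LIF, the cytokine that sustains self-renewal. The shKdm5b cells carried a lentiviral short hairpin RNA against *Kdm5b*, which encodes a demethylase of histone H3 lysine 4, and the shLuc control cells carried a hairpin against luciferase. Both were puromycin-selected transduced cells, and the labels describe culture in low-attachment dishes that favour 3D aggregates. There was 1 library per condition, so an effect of the hairpin and a peculiarity of its library cannot be told apart. In such bulk RNA, fewer cells of a kind and less RNA per cell also cannot be told apart.

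Cyclins are the regulatory subunits of cyclin-dependent kinases (CDKs). D-type cyclins activate CDK4 and CDK6 in G1 in response to growth signals, E-type cyclins activate CDK2 at the entry into S phase, cyclin A2 acts with CDK2 and CDK1 through S and G2, and B-type cyclins drive mitosis with CDK1. Cyclin F binds no CDK and is the substrate-recognition subunit of an SCF ubiquitin ligase. ES cells cycle rapidly with a short G1, and naive ES cells are known for low D-type cyclin activity and for E-type cyclin activity that varies little over the cycle, whereas G1 lengthens as they differentiate.

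The library totals, worked back from the deposited RPKM, read counts and lengths, were 78172700 reads for shLuc and 72702699 reads for shKdm5b. *Kdm5b* itself had an RPKM (reads per kilobase of transcript, scaled to the total reads of the library) of 104 in shLuc and 3.01 in shKdm5b, or 2.88% of the control level. The ES cell markers were present in both libraries (8 of 8 listed genes above an RPKM of 1), but single markers moved apart. *Pou5f1*, which encodes the pluripotency factor OCT4, had an RPKM of 619 in shLuc and 182 in shKdm5b (log2 ratio -1.76, and -1.03 with GC content taken out) and *Esrrb* had 80.5 and 41.2 (-0.96, and -0.31), while *Dppa5a* had 1096 and 1651 (0.59, and 0.75, but -0.03 with length taken out too). The other 5 markers lay within 1.5-fold on RPKM as deposited. Of these, *Utf1* (log2 ratio -0.29) was past it at 0.68 with GC content taken out, and at 0.30 with length taken out too. Of 10 fibroblast markers, which the feeder cells would contribute, 1 was above an RPKM of 1 (*Thy1*, 4.08 in shLuc and 4.59 in shKdm5b). Their summed RPKM was 5.50 and 6.43. Reads in shLuc and shKdm5b were 212 and 322 for *Pdgfrb*, 57 and 75 for *Col1a2* and 17 and 43 for *Dcn*. They were 15 and 17 for *Col3a1* and 2 and 4 for *Lum*. The other way went *Col1a1* (174 and 135 reads), *Twist2* (11 and 3), and *Postn* and *Fap* (3 and 0 each). Of 10 early differentiation markers, 7 were above an RPKM of 1. Of these, 1 was higher in shKdm5b (*Eomes*, log2 ratio 0.70) and 4 lay within 1.5-fold. The endoderm factors *Gata4* (-2.07) and *Gata6* (-1.62), 2 in all, were lower. Their RPKM in shLuc and shKdm5b was 2.58 and 0.539 for *Gata4* and 1.01 and 0.258 for *Gata6*. Both were thus above 1 only in shLuc, where they are higher. Markers below an RPKM of 1 in both libraries were *T* (6 and 47 reads), *Mixl1* (50 and 35) and *Sox17* (60 and 4). With GC content taken out, 2 were higher (*Eomes*, 1.43, and *Sox1*, 1.23) and 2 lower (*Gata4*, -1.44, and *Gata6*, -1.11). Beside the counts of these and the ES cell markers, 16.3% of all genes above an RPKM of 1 were higher and 32.0% lower as deposited. The shares were 19.1% and 17.9% with GC content taken out. The part of cell state in the cyclin differences was not tested.

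At 72 h, the levels of core cyclin transcripts differed in both directions between shLuc and shKdm5b ES cells. The summed RPKM of the D-type cyclins was 103 in shLuc and 55.4 in shKdm5b and that of the E-type cyclins was 110 and 68.0, while the summed RPKM of the A-type cyclins was 95.4 and 116 and that of the B-type cyclins was 166 and 241. The sum over all 10 genes was close in the libraries (542 and 530). A gene was called higher or lower when its log2 ratio of shKdm5b to shLuc, on RPKM + 0.1, exceeded a fold change of 1.5 and its RPKM was above 1 in at least 1 library. By these thresholds 3 cyclins were higher (*Ccna1*, *Ccnb2* and *Ccne2*), 3 were lower (*Ccnd1*, *Ccnd3* and *Ccne1*) and 4 lay within 1.5-fold (*Ccnd2*, *Ccna2*, *Ccnb1* and *Ccnf*). Among all 11804 genes above the RPKM threshold, 48.3% were past 1.5-fold, with 16.3% higher and 32.0% lower, and 6 of 10 cyclins is near that share. Scaling the libraries to equal medians gave the same 3 and 3 cyclins, while among all genes it gave 22.0% higher and 25.5% lower (47.4% in all). The split was 24.1% and 23.2% (47.2% in all) after TMM scaling and 24.7% and 22.6% (47.4% in all) with DESeq2 size factors, also with the same 3 and 3 cyclins. At a fold change above 2, *Ccna1* alone of the cyclins was called, beside 22.8% of all genes (6.27% higher and 16.5% lower). In this and every other call with that RPKM threshold, *Ccna1* met it only through shKdm5b, where it is higher. Its RPKM was 0.188 in shLuc and 1.05 in shKdm5b, from 23 and 120 reads. Where edgeR's exact test between the libraries, at an assumed dispersion of 0.01, was also required, *Ccna1*, *Ccnb2* and *Ccne2* were called, beside 32.4% of all genes (15.9% higher and 16.5% lower). At an assumed dispersion of 0.04 *Ccna1* alone was called, beside 2.44% of all genes (0.957% higher and 1.48% lower). The exact test used TMM-scaled counts, while the fold threshold stayed on unscaled RPKM. On the TMM scale *Ccnd1* was at -0.71, *Ccnd3* and *Ccne1* at -0.72, and *Ccnb2* and *Ccne2* at 1.09. The test was thus harder to pass for the lower cyclins than for the higher ones. The median log2 ratio of the cyclins was -0.08, beside -0.21 for all genes above the threshold. Intervals are exact 95% intervals from the read counts, with no pseudocount, and they cover only counting error.

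**Figure D1:**
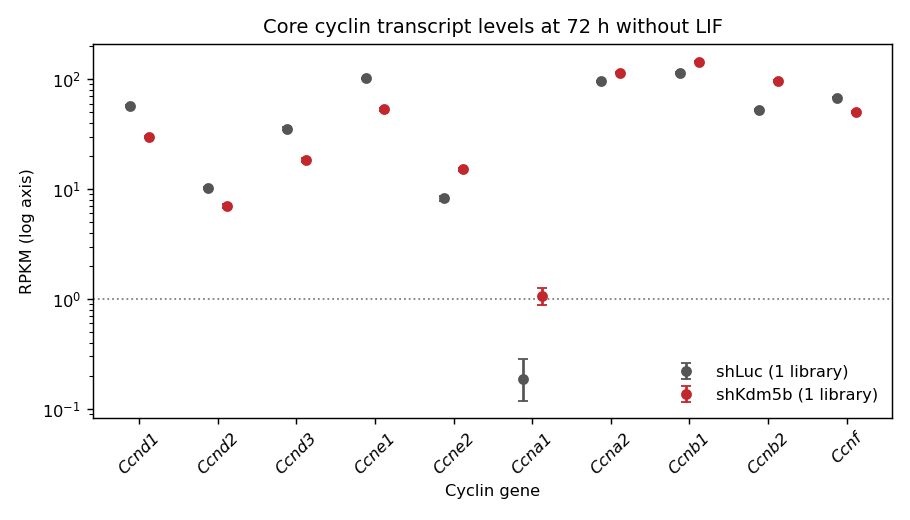
RPKM (log axis) of the 10 core cyclin genes in the shLuc library (grey) and the shKdm5b library (red), 1 library each; error bars are 95% Poisson counting intervals, hidden by the points for most genes, and the dotted line marks an RPKM of 1. The D-type cyclins and *Ccne1* lie lower in shKdm5b, *Ccne2* and the A-type and B-type cyclins lie higher, and *Ccna1* is far below the others in both libraries.

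The D-type cyclins, which couple growth signals to the exit from G1, all had lower values in shKdm5b ES cells. *Ccnd1* (chromosome 7, 144929931 to 144939925, GENCODE M21 on GRCm38) had an RPKM of 57.0 (16908 reads) in shLuc ES cells and 29.9 (8260 reads) in shKdm5b ES cells, a log2 ratio of -0.93 (-0.97 to -0.89). *Ccnd3* (chromosome 17, 47505051 to 47599691) had an RPKM of 35.4 (5469 reads) and 18.4 (2653 reads), a log2 ratio of -0.94 (-1.01 to -0.87). Both stood at a little over 52% of the control level (52.5% for *Ccnd1* and 52.2% for *Ccnd3*). *Ccnd2* (chromosome 6, 127125162 to 127152193) was the lowest of the D-type genes, with an RPKM of 10.2 (4616 reads) and 7.0 (2937 reads). Its log2 ratio of -0.54 (-0.61 to -0.48) stayed within 1.5-fold. On RPKM as deposited, the make-up of the D-type pool was nearly the same in the libraries. *Ccnd1* gave 55.6% of the summed D-type RPKM in shLuc and 54.1% in shKdm5b, *Ccnd3* gave 34.5% and 33.3%, and *Ccnd2* gave 9.98% and 12.6%. With GC content taken out, the shKdm5b shares were 47.5% for *Ccnd1*, 43.4% for *Ccnd3* and 9.08% for *Ccnd2*. The files hold 3 RefSeq entries for *Ccnd3* with nearly the same reads, and their log2 ratios were -0.94, -0.91 and -0.89.

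The E-type cyclins, which fire CDK2 at the G1/S boundary, differed in opposite directions. *Ccne1* (chromosome 7, 38097984 to 38107534) was the second most abundant cyclin in shLuc ES cells, with an RPKM of 101 (15495 reads), and had an RPKM of 52.9 (7527 reads) in shKdm5b ES cells. Its log2 ratio was -0.94 (-0.98 to -0.90). *Ccne2* (chromosome 4, 11191351 to 11204779) was far less abundant, with an RPKM of 8.21 (1933 reads) in shLuc and 15.1 (3301 reads) in shKdm5b, a log2 ratio of 0.87 (0.80 to 0.96). *Ccne1* exceeded *Ccne2* 12.3-fold in shLuc and 3.51-fold in shKdm5b. The share of *Ccne2* in the E-type RPKM was therefore 7.49% in shLuc and 22.2% in shKdm5b. A second *Ccne2* entry gave the same log2 ratio of 0.87.

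The A-type pool was almost entirely *Ccna2*, which serves S phase and G2 in dividing somatic and ES cells. *Ccna2* (chromosome 3, 36564865 to 36572150) had an RPKM of 95.2 (20927 reads) in shLuc and 115 (23453 reads) in shKdm5b, a log2 ratio of 0.27 (0.24 to 0.30) that lies within 1.5-fold. *Ccna1*, the germline cyclin needed for male meiosis, lies on chromosome 3 from 55045469 to 55055501. It had 23 reads in shLuc (RPKM 0.188) and 120 reads in shKdm5b (RPKM 1.05), with counting intervals of 0.119 to 0.282 and 0.874 to 1.26. Its log2 ratio of 2.0 was the largest in size among the 10 cyclins, and the counting interval without the pseudocount ran from 1.84 to 3.20. *Ccna1* passed the RPKM threshold only through the shKdm5b library, and it made up 0.91% of the A-type RPKM there and 0.20% in shLuc.

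The B-type cyclins, partners of CDK1 in mitosis, were both higher in shKdm5b ES cells in value, and *Ccnb2* passed the thresholds. *Ccnb1* (chromosome 13, 100778650 to 100786570) was the most abundant cyclin in both libraries, with an RPKM of 113 (20539 reads) in shLuc and 144 (24319 reads) in shKdm5b and a log2 ratio of 0.35 (0.32 to 0.38). *Ccnb2* (chromosome 9, 70407692 to 70421547) had an RPKM of 52.7 (6345 reads) in shLuc and 96.4 (10798 reads) in shKdm5b, a log2 ratio of 0.87 (0.83 to 0.92). *Ccnb1* exceeded *Ccnb2* 2.15-fold in shLuc and 1.50-fold in shKdm5b. *Ccnf* (chromosome 17, 24222198 to 24251484) peaks in G2 like the B-type genes. It went the other way in value, with an RPKM of 68.0 (16464 reads) in shLuc and 50.4 (11362 reads) in shKdm5b and a log2 ratio of -0.43 (-0.47 to -0.40), within 1.5-fold.

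The order of the cyclins by RPKM, which is per transcript length, differed between the libraries. In shLuc ES cells it ran *Ccnb1*, *Ccne1*, *Ccna2*, *Ccnf*, *Ccnd1*, *Ccnb2*, *Ccnd3*, *Ccnd2*, *Ccne2* and *Ccna1*. In shKdm5b ES cells it ran *Ccnb1*, *Ccna2*, *Ccnb2*, *Ccne1*, *Ccnf*, *Ccnd1*, *Ccnd3*, *Ccne2*, *Ccnd2* and *Ccna1*. No neighbours in either order had overlapping counting intervals, though *Ccne1* (51.7 to 54.1) and *Ccnf* (49.5 to 51.4) came close in shKdm5b. *Ccnb2* took 9.73% of the RPKM of all core cyclins in shLuc and 18.2% in shKdm5b, and *Ccne1* took 18.7% and 9.98%. The ratio of *Ccnb1* to *Ccnd1* was 1.99 in shLuc and 4.83 in shKdm5b, where it was 3.37 with GC content taken out and 3.07 with length taken out too.

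Promoter sequence from RefSeq (GRCm38.p6) is shown for the B-type cyclins and *Ccnf*, which are G2 genes and of which only *Ccnb2* passed the thresholds, and for *Ccne1*, a G1/S gene. Each line gives the 250 bases before the annotated start, 5′ to 3′, with 2 known elements of late cell cycle promoters in capitals: the CCAAT box bound by NF-Y, and TTTGAA, the core of the cell cycle genes homology region bound by the MuvB complex.
Ccnb1 (chr13:100786487-100786736, minus strand): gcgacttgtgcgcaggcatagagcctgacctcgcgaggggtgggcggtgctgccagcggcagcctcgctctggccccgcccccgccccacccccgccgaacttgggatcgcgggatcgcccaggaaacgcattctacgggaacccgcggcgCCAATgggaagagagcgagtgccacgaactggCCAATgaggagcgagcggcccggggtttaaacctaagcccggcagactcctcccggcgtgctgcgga
Ccnb2 (chr9:70421555-70421804, minus strand): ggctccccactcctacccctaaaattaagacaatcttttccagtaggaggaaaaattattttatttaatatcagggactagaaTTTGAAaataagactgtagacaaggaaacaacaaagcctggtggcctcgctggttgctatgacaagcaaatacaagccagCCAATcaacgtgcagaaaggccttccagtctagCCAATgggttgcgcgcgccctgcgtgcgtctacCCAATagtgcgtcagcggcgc
Ccnf (chr17:24251410-24251659, minus strand): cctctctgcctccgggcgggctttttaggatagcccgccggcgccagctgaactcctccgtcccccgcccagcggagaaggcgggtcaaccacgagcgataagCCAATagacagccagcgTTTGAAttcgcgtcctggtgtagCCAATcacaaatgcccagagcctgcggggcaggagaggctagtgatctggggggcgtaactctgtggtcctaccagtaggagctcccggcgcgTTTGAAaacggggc
Ccne1 (chr7:38107491-38107740, minus strand): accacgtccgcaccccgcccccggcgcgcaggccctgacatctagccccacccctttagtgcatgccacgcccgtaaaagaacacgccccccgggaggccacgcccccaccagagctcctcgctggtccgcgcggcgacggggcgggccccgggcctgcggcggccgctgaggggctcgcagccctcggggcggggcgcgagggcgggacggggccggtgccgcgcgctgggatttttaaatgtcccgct

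Windows of 300 bases, which add the 50 bases from the start on, were found for 6 of the 10 cyclins (7 windows, with 2 for *Ccnd3*), and both strands were searched for CCAAT, for TTTGAA and for the GC box, GGGCGG. The *Ccnb2* window held 3 CCAAT boxes, whose first bases lie 87, 54 and 21 bases before the start, and 2 TTTGAA matches, beginning 167 bases before the start and at base 5 from the start on. The *Ccnb1* window held 2 CCAAT boxes (99 and 67 bases before the start) and no TTTGAA. The *Ccnf* window held 2 CCAAT boxes (147 and 107 bases before) and 2 TTTGAA matches (130 and 14 bases before). *Ccnb2* (called higher) and *Ccnf* (within 1.5-fold) both carried matches to CCAAT and to the MuvB element. The *Ccne1* window held neither element and 4 GC boxes, *Ccna1* held 1 CCAAT box, and of the *Ccnd3* windows the downstream one held 1. GC boxes were in every other cyclin window too: 3 each for *Ccna1*, *Ccnb1* and *Ccnf*, 2 in each *Ccnd3* window and 1 for *Ccnb2*. Over all 32851 windows, 37.4% held at least 1 CCAAT, 11.7% held at least 2, 17.9% held TTTGAA and 35.7% held GGGCGG. A match describes the letters only and does not show that a factor binds.

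The values of the cyclins moved with the GC content of their transcripts, as did those of all genes. Genes were split by GC content into 10 bins of equal number. The median log2 ratio was 0.48 in the GC-poorest bin (29.6% to 42.0%) and -0.88 in the GC-richest bin (58.5% to 82.9%). *Ccne2*, higher in shKdm5b, had the lowest GC content of the cyclins (36.3%) and was in the GC-poorest bin, and *Ccnd3*, lower in shKdm5b, had the highest (59.7%) and was in the GC-richest. Across the 10 cyclins, Spearman's rho of GC content and log2 ratio was -0.58, and across 11535 genes above the RPKM threshold it was -0.53, as descriptions of this pair of libraries. A lowess curve of log2 ratio on GC content was 0.69 at the GC content of *Ccne2* and -0.85 at that of *Ccnd3*. After this curve was taken out, the log2 ratio of *Ccne2* was 0.18, that of *Ccnd3* was -0.09 and that of *Ccne1* was -0.52, so all 3 lay within 1.5-fold. *Ccnd1* (GC content 50.9%) remained past it at -0.65, and *Ccnb2* (49.3%) and *Ccna1* (50.8%) were at 1.03 and 2.25. *Ccnb1* was then at 0.11, *Ccna2* at 0.18, *Ccnd2* at -0.55 and *Ccnf* at 0.04, where its sign was reversed. After the correction 3 of 10 cyclins were past 1.5-fold (2 higher and 1 lower), beside 37.0% of all genes (19.1% higher and 17.9% lower).

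**Figure D2:**
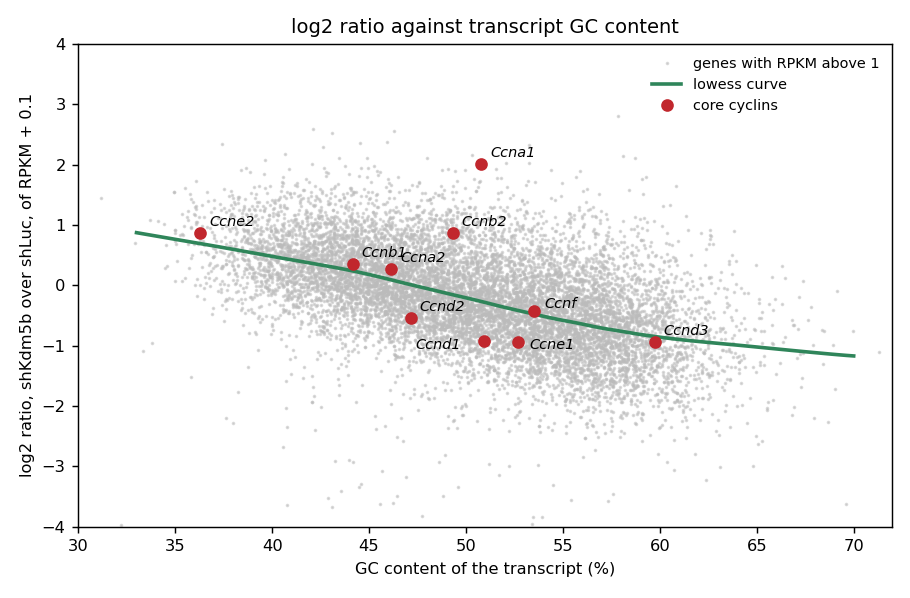
Log2 ratio of shKdm5b to shLuc (RPKM + 0.1) against the GC content of the transcript in percent, for genes with an RPKM above 1 (grey), with their lowess curve (green) and the 10 core cyclins (red); some genes lie outside the axes. *Ccne2*, *Ccnb1*, *Ccna2*, *Ccnf* and *Ccnd3* lie near the curve, *Ccna1* and *Ccnb2* lie above it, and *Ccnd1*, *Ccne1* and *Ccnd2* lie below it.

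When transcript length was taken out as well, 2 of 10 cyclins were past 1.5-fold, beside 32.2% of all genes (15.7% higher and 16.5% lower). These were *Ccna1* (log2 ratio 2.10) and *Ccnb2* (0.85), while *Ccnd1* (-0.51), *Ccne1* (-0.56) and *Ccnd2* (-0.36) kept negative values within 1.5-fold. *Ccnb2* and *Ccna1* were thus past 1.5-fold on every scale in the plot of log2 ratios, and *Ccnd1* on all but the last. On each scale *Ccna1* met the RPKM threshold only through shKdm5b, where it is higher, with 23 reads in shLuc. With a pseudocount of 1 its log2 ratio was 0.79. The ratio of *Ccne1* to *Ccne2* in shKdm5b, 3.51 as deposited, was 7.57 with GC content taken out and 6.93 with length taken out too, still below the 12.3 of shLuc. The ratio of *Ccnb1* to *Ccnb2* was 1.14 and 1.29, also below the 2.15 of shLuc. The part of GC content and length in these differences was not tested further.

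**Figure D3:**
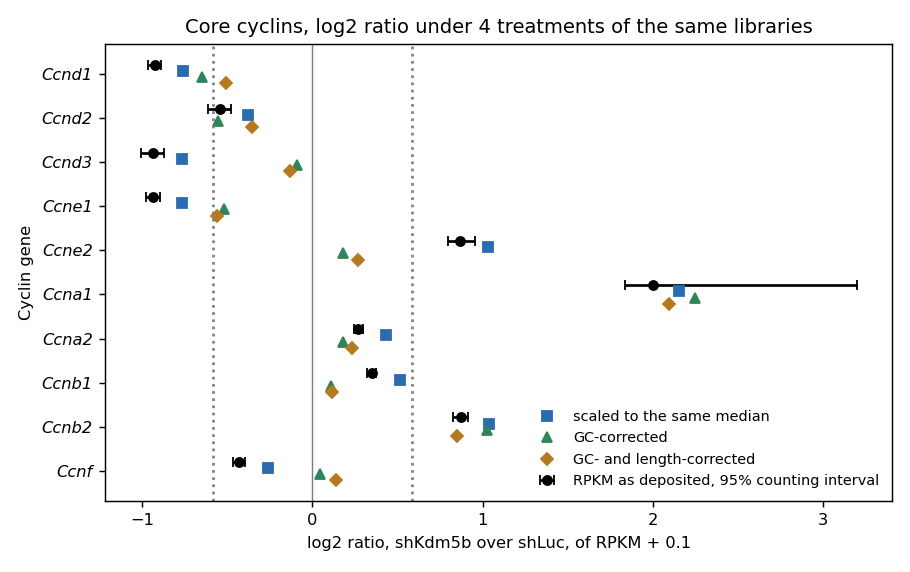
Log2 ratio of shKdm5b to shLuc (RPKM + 0.1) of each core cyclin, from RPKM as deposited (black, with 95% counting intervals that were computed without the pseudocount), after scaling to the same median (blue), after GC correction (green) and after GC and length correction (orange); dotted lines mark 1.5-fold. *Ccnb2* and *Ccna1* lie right of the upper line throughout, and *Ccne2*, *Ccne1* and *Ccnd3* lie inside the lines after either correction.

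Some cyclin reads could come from other genes. On GRCm38, exons of *Ccne2* overlap those of *Ints8* on the opposite strand by 609 bases, those of *Ccna2* overlap *Exosc9* by 510, those of *Ccnd1* overlap *Oraov1* by 1100 (annotated there as LTO1) and those of *Ccnd3* overlap *Bysl* by 361. Antisense RNAs also overlap exons of *Ccnd2* (Gm43126 by 372 bases and 9330179D12Rik by 368) and of *Ccna1* (4931419H13Rik by 185), whose log2 ratio rests on 23 and 120 reads. The methods name no strand-aware counting, so reads of such partners cannot be told apart. *Oraov1* had an RPKM of 5.06 in shLuc and 2.50 in shKdm5b, *Bysl* 23.9 and 11.4, *Exosc9* 37.6 and 48.4, and *Ints8* 20.0 and 21.2. Annotated processed pseudogenes exist for *Ccnb1*, *Ccnb2* and *Ccnd3*, whose counts are uncertain to that extent.

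The kinases, inhibitors and regulators around the cyclins were described by 7 lists of 71 genes, all above the RPKM threshold. Of these, 12 were higher and 15 lower in shKdm5b ES cells (27 of 71, beside 48.3% of all genes), and the median log2 ratio was 0.06, beside -0.21 for all genes. After the GC correction 13 were higher and 3 lower, beside 19.1% and 17.9% of all genes. The shares of all genes were 22.0% higher and 25.5% lower after scaling to equal medians. They were 15.7% and 16.5% after the GC and length correction. These shares also stand beside the counts of each list below.

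Of the 4 CDK genes, 2 were lower (*Cdk4* and *Cdk2*), 2 were within 1.5-fold (*Cdk1* and *Cdk6*) and 0 were past it after the GC correction. *Cdk4*, the main kinase of the D-type cyclins, had an RPKM of 252 in shLuc and 147 in shKdm5b (log2 ratio -0.78, and -0.31 after the GC correction). *Cdk2* had an RPKM of 34.6 and 22.1 (log2 ratio -0.65, and -0.54 after the correction). *Cdk1*, the only CDK essential for mitosis, had an RPKM of 46.3 and 45.6 (log2 ratio -0.02). *Cdk6* was low in both libraries (3.31 and 4.04, log2 ratio 0.28). Of the CDK-activating kinase and CDC25 phosphatase genes, 1 of 6 was past 1.5-fold, *Mnat1* (log2 ratio 0.67), an assembly factor of the CDK7 complex, and 0 were after the GC correction, which put *Mnat1* at 0.31. These counts stand beside 48.3% and 37.0% of all genes.

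Of 9 genes for CDK inhibitors and inhibitory kinases, 3 were higher and 4 lower, beside 16.3% and 32.0% of all genes. *Cdkn1a*, which encodes the CDK inhibitor p21, had an RPKM of 16.4 in shLuc and 36.0 in shKdm5b (log2 ratio 1.13), and its log2 ratio was 1.68 after the GC correction, since its transcript is GC-rich (54.6%). *Cdkn2c*, which encodes the CDK4 and CDK6 inhibitor p18, had 34 reads in shLuc and 112 reads in shKdm5b (log2 ratio 1.60). Its RPKM was 0.393 and 1.39, so it met the RPKM threshold only through shKdm5b, where it is higher. *Pkmyt1*, a kinase that restrains CDK1, had a log2 ratio of -1.20, and *Cdkn2a*, the locus of p16 and p19ARF, had a log2 ratio of -1.03. After the GC correction these were -0.27 and -0.18, and 4 genes of the list were higher and 0 lower. With length taken out too, *Cdkn2a* was at -0.71, and 3 were higher and 1 lower.

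The genes of the RB and E2F axis, through which D-type cyclins release the S phase programme, numbered 1 higher and 5 lower of 13, beside 16.3% and 32.0% of all genes. The numbers were 3 higher and 2 lower after scaling to equal medians, and 2 higher and 1 lower after the GC and length correction. *E2f1* had an RPKM of 23.0 in shLuc and 9.51 in shKdm5b (log2 ratio -1.27), and *E2f2* had 3.43 and 1.05 (log2 ratio -1.61). *Tfdp1*, the dimer partner of the E2F activators, had 69.7 and 42.5 (log2 ratio -0.71). *Rb1*, which encodes the retinoblastoma protein that these activators are held by, had 6.27 and 13.1 (log2 ratio 1.05). After the GC correction 1 gene was higher, *Rb1* (log2 ratio 0.64), and 1 lower, *E2f2* (-0.98), while *E2f1* was at -0.52 and *Tfdp1* at -0.47.

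The genes that turn cyclins over, or act with their destruction machinery, numbered 4 higher and 2 lower of 16. All genes stood at 16.3% higher and 32.0% lower. After the GC correction the numbers were 4 higher and 1 lower, beside 19.1% and 17.9% of all genes. With length taken out too they were 2 higher and 1 lower, beside 15.7% and 16.5% of all genes. *Cks2* and *Cks1b*, small CDK-binding subunits, had log2 ratios of 1.55 and 1.10, which were 1.37 and 1.25 after the GC correction and 0.63 and 0.56 with length taken out too, where *Cks1b* lay within 1.5-fold. *Fzr1*, which encodes the CDH1 activator of the anaphase-promoting complex in G1, had a log2 ratio of -1.19, and at -0.34 after the GC correction it lay within 1.5-fold. *Fbxo31*, which encodes an F-box protein that directs the destruction of cyclin D1, had an RPKM of 16.0 in shLuc and 5.53 in shKdm5b (log2 ratio -1.51), and it was at -0.71 after the GC correction. Of the regulators of late cell cycle genes, 2 were higher and 1 lower of 9, beside 16.3% and 32.0% of all genes. The numbers were 2 and 1 after the GC correction, beside 19.1% and 17.9% of all genes. With length taken out too they were 1 and 0, beside 15.7% and 16.5% of all genes. *Mybl2*, which encodes B-MYB, had 93.1 and 37.4 (log2 ratio -1.31, and -0.65 after the GC correction). *Lin52* of the MuvB core had a log2 ratio of 0.88 (0.65 after the correction) and *Nfyb*, a subunit of the CCAAT-binding NF-Y, had 0.66 (0.23, within 1.5-fold). *Foxm1* had a log2 ratio of -0.42, and its sign turned to give 0.14 after the correction.

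Of 14 mitotic genes, 1 was higher (*Bub1*, log2 ratio 0.72), 1 was lower (*Bub1b*, log2 ratio -0.61) and 12 were within 1.5-fold, where 48.3% of all genes were past it. Both named genes lay within 1.5-fold after the GC correction (0.30 and -0.37), when 2 others were higher and 0 lower (*Aurka*, 0.73, and *Birc5*, 0.74). After scaling to equal medians 3 were higher and 0 lower. The median of the mitotic genes was 0.12, beside 0.35 and 0.87 for *Ccnb1* and *Ccnb2*. After the GC correction the median of the mitotic genes was 0.06, and *Ccnb2* stood at 1.03.

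**Figure D4:**
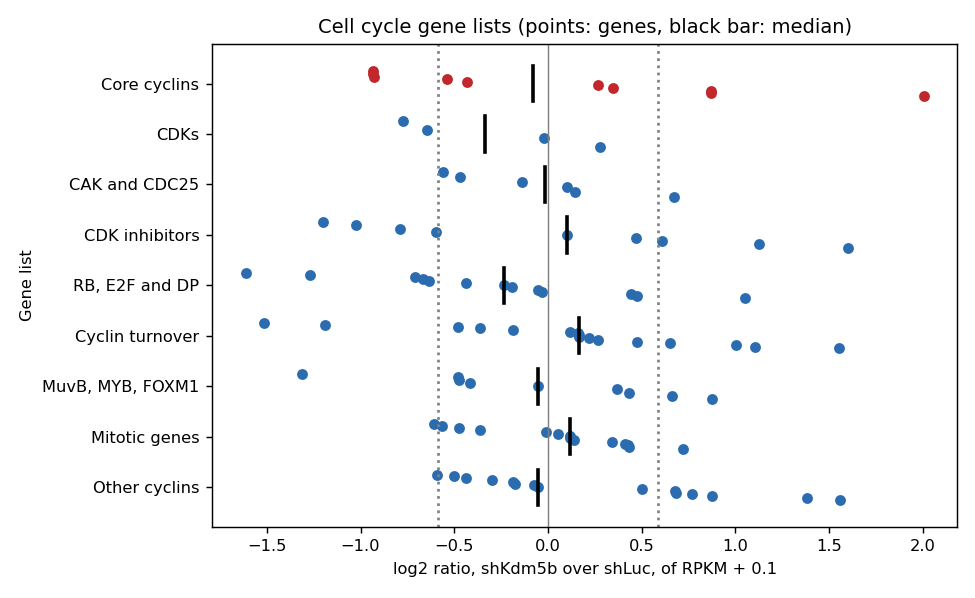
Log2 ratio of shKdm5b to shLuc (RPKM + 0.1) of each gene (points) in the core cyclins (red) and in 8 lists of other cell cycle and cyclin genes with an RPKM above 1 (blue); black bars are list medians and dotted lines mark 1.5-fold. The core cyclins spread to both sides (3 right of the lines and 3 left), and 12 of 14 mitotic genes lie between the lines.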

How the data were processed

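The deposited table of each library lists, per RefSeq transcript, its length, an RPKM and a count of reads. RPKM was computed by the authors from the counts, the length and the total reads of the library. The submitters' processing notes name Bowtie 0.12.7, CASAVA 1.0 and build mm8 without a role. The deposited read alignments, on another build than the annotation used here, were not used.

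Where a symbol had several of the 27405 transcripts, that with the largest RPKM averaged over the libraries represented it, leaving 21935 symbols. Because 0.1 was added to RPKM before the log2, ratios of weakly expressed genes are shrunken. With 1 library per condition, edgeR's quasi-likelihood test could not be fitted, no p-value is given, and calls rest on a fold change above 1.5 and an RPKM above 1. The study's rule also required an FDR below 0.001 from edgeR, which was left out because no spread between replicates can be estimated, and tried only at assumed dispersions. At these depths 3 reads on 1 kb equal 0.0384 RPKM in shLuc and 0.0413 in shKdm5b. Intervals for ratios are exact Clopper-Pearson and those for levels exact Poisson, at 95%, and cover counting error only.

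GC content was taken from GENCODE M21 transcripts through the RefSeq accession (97.1% of symbols), and lowess curves (fraction 0.3) on GC content, or on GC content and then length, were taken out of the shKdm5b RPKM. Alternatives were other pseudocounts, scalings (equal medians, TMM, DESeq2 size factors), summed entries, other thresholds and edgeR's exact test at assumed dispersions. The steps were tested on simulated data. The members and lists were chosen with earlier results of these data known. All members, the targeted gene, up to 4 genes with the largest log2 ratio in size among those past 1.5-fold in each list, and *Cdk1*, *Cdk2*, *Cdk4*, *Cdk6*, *Cdkn1a*, *Rb1*, *E2f1* and *Foxm1* are named. Overlap partners, the cell type and differentiation markers, *Aurka*, *Birc5*, *Ccnb3*, *Ccnk*, *Ccnj* and *Ccnt2* were named after their values were seen. With 2 libraries, likeness of expression pattern between genes was not measured. Tools were Python 3.11.15, statsmodels 0.14.6, SciPy 1.17.1, R 4.3.3, edgeR 4.0.16 and DESeq2 1.42.0.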

Additional observations from a re-analysis of the deposited data

How the results depend on the processing

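No paired analysis was possible because shLuc and shKdm5b ES cells gave a single library each, which also leaves no replicate to omit. The 6 core cyclins past 1.5-fold stayed the same genes under both other pseudocounts, the 3 scalings, summed entries and no RPKM threshold. With RPKM above 11 *Ccna1* was lost, and *Ccne2* (8.21 in shLuc and 15.1 in shKdm5b) met that threshold only through shKdm5b, where it is higher. The number of cyclins called was 3 after the GC correction (2 higher, 1 lower) and 2 after the GC and length correction (2 higher, 0 lower). With a fold change above 2 it was 1 (1 higher, 0 lower). With edgeR's exact test on TMM-scaled counts at an FDR below 0.001 added, it was 3 at a dispersion of 0.01 (3 higher, 0 lower) and 1 at 0.04 (1 higher, 0 lower), beside 32.4% and 2.44% of all genes. That test compares the libraries and not the conditions, and the spread between cultures was not measured. The median log2 ratio of the cyclins, -0.08, was 0.086 after scaling to equal medians (a shift of -0.17 in all genes), 0.14 after TMM, 0.16 with DESeq2 size factors, 0.077 with GC content taken out and 0.13 with length taken out too. Of the single cyclins, 9 kept their sign under all 8 settings tried for them, and *Ccnf* did under 6.

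Over the 7 pathway lists, 27 genes were past 1.5-fold (12 higher, 15 lower). There were 19 higher and 9 lower after scaling to equal medians, beside 22.0% and 25.5% of all genes. After TMM or with DESeq2 size factors there were 21 higher and 7 lower. All genes then stood at 24.1% and 23.2% (TMM) and at 24.7% and 22.6% (DESeq2), so these scalings moved all genes toward higher too. After the GC correction 16 were past it (3 lower), beside 37.0% of all genes (17.9% lower). After the GC and length correction 13 were (3 lower), beside 32.2% of all genes (16.5% lower). In shKdm5b the shares of *Ccnd1*, *Ccnd2* and *Ccnd3* in the D-type RPKM were 33.3%, 7.78% and 59.0% with summed entries, which count shared *Ccnd3* reads repeatedly, and in shLuc 34.0%, 6.11% and 59.8% on the same basis. The shKdm5b shares were 47.5%, 9.08% and 43.4% with GC content taken out, and 49.8%, 9.93% and 40.2% with length taken out too. Depth limits *Ccna1* alone among the cyclins, with 23 reads in shLuc.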

Other observations

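The cyclin-box genes that act outside the core cell cycle, in transcription, splicing or stress responses, were described beside the core cyclins. Of 16 such genes, 15 had an RPKM above 1 in at least 1 library, of which 6 were higher and 1 lower in shKdm5b ES cells, beside 16.3% and 32.0% of all genes. *Ccng1*, which encodes cyclin G1 and is a known p53 target, had an RPKM of 66.8 (18200 reads) in shLuc and 196 (49788 reads) in shKdm5b, a log2 ratio of 1.56 that was 1.12 after the GC correction. *Ccng2*, which encodes the related cyclin G2, had 16.8 and 43.9 (log2 ratio 1.38, and 1.27 after the correction). *Ccni*, which encodes cyclin I, had 67.5 and 115 (log2 ratio 0.77, and 0.83 after the correction). *Ccnc*, the cyclin of the Mediator kinase module, had 10.9 and 20.1 (log2 ratio 0.87), but its transcript has a lower GC content than any core cyclin and its log2 ratio was 0.11 after the correction. The lower gene was *Ccnj* (log2 ratio -0.59), which was at -0.57 after the correction, within 1.5-fold, and at -0.43 after scaling to equal medians. After the GC correction 4 were higher (*Ccng1*, *Ccng2*, *Ccni* and *Ccnk*) and 1 lower (*Ccnt2*), beside 19.1% and 17.9% of all genes. *Ccnb3*, a cyclin of meiosis, had 21 reads in shLuc and 2 reads in shKdm5b, with an RPKM below 1 in both libraries, where *Ccna1*, the other meiotic cyclin, had 23 and 120 reads.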
